A study of Homo sapiens with 6 samples.

Results

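The genes described here are 10 transcripts of the unfolded protein response of the endoplasmic reticulum (ER), out of 61806 genes in the deposited table. They were picked by symbol as XBP1 with 4 genes linked to it or to ER-associated degradation (DNAJB9, HERPUD1, SEL1L and EDEM1), and as 5 ER chaperones and folding factors linked to ATF6 (HSPA5, HSP90B1, PDIA4, SDF2L1 and CRELD2). The choice was made with their values by treatment and by replicate number already known, so those values are a description, and no count, interval or fold change of the members below supports a claim about the treatment or the numbers. RNA came from BEAS-2B, a virus-immortalised line derived from bronchial epithelium, in 3 control libraries and 3 libraries labelled as treated with 15-KETE, numbered 1 to 3 in each group. 15-KETE is a keto derivative of arachidonic acid. Neither its dose, nor the length of exposure, nor what the controls received is stated in the labels, and no label ties the replicates to separate cultures, so the tests below measure the spread between these libraries, which may be technical.

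When unfolded proteins build up in the ER, 3 membrane sensors signal to the nucleus. IRE1 (gene ERN1) splices the mRNA of XBP1 into the form that encodes an active transcription factor, ATF6 is cut in the Golgi into another factor, and PERK (EIF2AK3) phosphorylates the initiation factor eIF2-alpha, which favours translation of ATF4. XBP1 is known for raising genes of ER-associated degradation (ERAD), which returns misfolded proteins to the cytosol for the proteasome. ATF6 is known for raising lumenal chaperones and XBP1 itself. The table holds 1 value per gene, so spliced and unspliced XBP1 mRNA cannot be told apart in it.

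Both factors are known to act through short promoter elements, and these sequences are shown first because they are what the 2 sets of genes were compared on besides expression. The ER stress element (ERSE) was searched as CCAAT and CCACG with any 9 bases between them, ERSE-II as ATTGG and CCACG with any 1 base between them, and the core of the unfolded protein response element as TGACGTGG, each on both strands, in the 250 bases before the RefSeq start of each gene (GRCh38.p14). All 10 genes had a RefSeq window, and for XBP1 and PDIA4, with 2 windows each, the one nearest to the gene's start in the deposited table was used. The ERSE letters were found before XBP1, HSPA5 and CRELD2, at 1 place each, and before HSP90B1 at 2 places. All of the HSP90B1 and CRELD2 windows lie inside the gene as the deposited table gives it, whose start there is farther upstream than RefSeq's. The ERSE-II letters were found before HERPUD1 and SDF2L1. Among 35116 RefSeq windows of the same length, 0.074% held the ERSE and 0.0513% ERSE-II. No member's window held TGACGTGG, which 0.612% of all windows held. An ERSE with 1 changed letter was found before HERPUD1, SEL1L, HSP90B1 and SDF2L1, and in 1.29% of all windows. DNAJB9, SEL1L, EDEM1 and PDIA4 held none of the 3 motifs unchanged. Of their 250 bases, 172 for PDIA4, 61 for EDEM1 and 7 for DNAJB9 lay inside the gene as the deposited table gives it. Less of the sequence before that start was therefore searched in these genes, above all in PDIA4. The shorter CCACG, which is part of both ERSE forms, was in all 10 windows and in 33.5% of all windows, and CCAAT, also part of both, was in all 10 and in 32.0%. The windows are shown for the 3 genes that varied together between replicate numbers (below), cut where the gene begins in the deposited table, 5′ to 3′ on the gene's strand. Capitals mark the ERSE in XBP1 and ERSE-II in HERPUD1, and in DNAJB9 the CCACG letters on either strand.

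XBP1, chr22:28800598-28800819, minus strand: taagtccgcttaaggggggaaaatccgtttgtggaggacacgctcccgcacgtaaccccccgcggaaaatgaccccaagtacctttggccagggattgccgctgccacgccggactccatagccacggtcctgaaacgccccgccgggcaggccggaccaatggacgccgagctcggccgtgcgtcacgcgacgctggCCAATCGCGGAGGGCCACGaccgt
HERPUD1, chr16:56931892-56932141, plus strand: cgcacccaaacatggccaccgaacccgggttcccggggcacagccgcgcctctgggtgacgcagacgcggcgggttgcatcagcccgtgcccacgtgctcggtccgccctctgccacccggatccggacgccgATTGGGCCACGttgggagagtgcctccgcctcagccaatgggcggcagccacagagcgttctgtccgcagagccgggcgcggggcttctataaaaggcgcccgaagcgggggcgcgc
DNAJB9, chr7:108569624-108569866, plus strand: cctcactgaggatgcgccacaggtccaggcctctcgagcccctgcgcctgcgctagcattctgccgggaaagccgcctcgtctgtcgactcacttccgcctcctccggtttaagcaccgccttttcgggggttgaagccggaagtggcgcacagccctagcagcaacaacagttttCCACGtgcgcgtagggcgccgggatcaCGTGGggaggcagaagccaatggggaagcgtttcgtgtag

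The other matches are shown as 30 bases around the motif, which is in capitals. In HSPA5 and in the HSP90B1 site at 194 bases before the start it reads forward, and in the other HSP90B1 site, in SDF2L1 and in CRELD2 it lies on the opposite strand.

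HSPA5, chr9:125241385-125241414, minus strand: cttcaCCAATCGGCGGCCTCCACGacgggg
HSP90B1, chr12:103930211-103930240, plus strand: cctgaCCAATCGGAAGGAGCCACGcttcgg
HSP90B1, chr12:103930316-103930345, plus strand: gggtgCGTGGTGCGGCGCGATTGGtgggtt
SDF2L1, chr22:21642105-21642134, plus strand: cctcggaagCGTGGACCAATcaaaaccctc
CRELD2, chr22:49918549-49918578, plus strand: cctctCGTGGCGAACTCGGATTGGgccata

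The ERSE letters lay 52 to 34 bases before the start in XBP1, 66 to 48 in HSPA5 and 80 to 62 in CRELD2. In HSP90B1 one site lay 89 to 71 bases before it and the other farther off, at 194 to 176 bases. ERSE-II lay 117 to 107 bases before the start of HERPUD1 and 188 to 178 before that of SDF2L1. A match of letters is a description of the sequence, and binding was not measured.

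**Figure D1:**
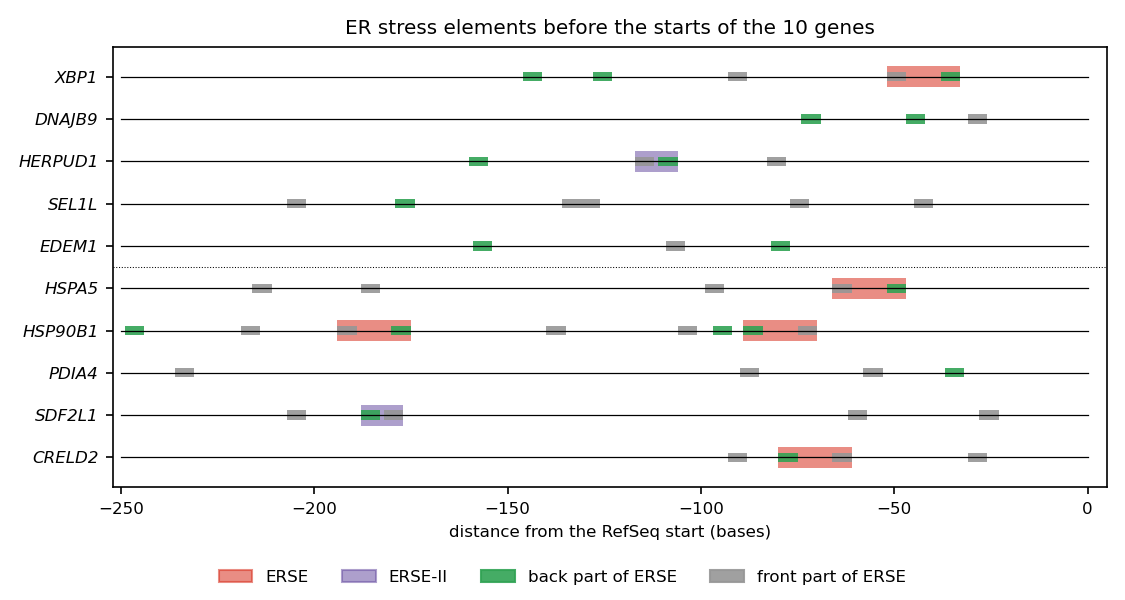
Positions of ERSE, ERSE-II, CCACG (back part of ERSE) and CCAAT (front part) letters on either strand, in bases before the RefSeq start (horizontal axis), for the 10 genes (rows, XBP1 and ERAD-linked genes above the dotted line, ATF6-linked genes below it). ERSE or ERSE-II letters are present in 2 of the 5 genes above the line and in 4 of the 5 below it.

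The libraries held 16844781 to 22876808 counts, and 15451 genes passed the filter on low counts, all 10 members among them. Control replicate 2 stood apart: genes of cytosolic ribosomal proteins took 10.2% of its counts against 4.29% to 6.31% in the other 5 libraries, and short genes had more of its counts, with a median exonic length per count of 4777 bases against 5529 to 6118. Of 9 airway epithelial markers, KRT7, KRT8 and KRT18 were at 34.5 to 442 FPKM, KRT5 at 0.99 to 2.04, KRT19, EPCAM and CDH1 at 0.32 to 1.09, and TP63 and NKX2-1 at 0 to 0.03. Of 6 mesenchymal markers, VIM and FN1 were at 109 to 246 FPKM, CDH2 at 11.1 to 15.8, COL1A1 at 2.48 to 3.68 and PDGFRB at 0.30 to 1.11, and COL3A1 had 0 counts in every library. Leukocyte, plasma cell and endothelial markers, 9 genes in all, summed to 0.36 to 0.71 FPKM per library. In such bulk RNA, fewer cells of a state and less RNA per cell cannot be told apart.

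HSPA5, PDIA4 and HSP90B1 were the most abundant of the 10 genes when levels were scaled to gene length (FPKM, fragments scaled to exonic length and library size). HSPA5, or BiP, the ER's Hsp70 and the chaperone that holds the sensors inactive, had 304 ± 55.3 FPKM (SD, n = 6 libraries here), with 77 of the 15451 tested genes above it. PDIA4, a protein disulfide isomerase, had 145 ± 17.9 FPKM, and HSP90B1, or GRP94, the ER's Hsp90, had 125 ± 35.4. XBP1 followed with 56.3 ± 25.5 FPKM. HSPA5 was above PDIA4, HSP90B1 above XBP1 and XBP1 above SDF2L1 in 6 of 6 libraries, whereas PDIA4 was above HSP90B1 in 4 of 6.

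The 6 less abundant members could not be put in a firm order. SDF2L1, a partner of the BiP cycle, had 24.1 ± 16.6 FPKM, HERPUD1 20.3 ± 9.74, EDEM1 17.0 ± 3.3, SEL1L 14.5 ± 4.93, DNAJB9 11.3 ± 6.0 and CRELD2 7.86 ± 2.2 (SD, n = 6 libraries each). Each neighbour in this order was the higher in only 2 to 4 of 6 libraries. Exonic size sums all annotated exons, 13092 bases for HSP90B1 against 1059 for SDF2L1, and it enters FPKM as the divisor.

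Within the XBP1 and ERAD-linked genes, XBP1, HERPUD1 and DNAJB9 were highest in both replicate 1 libraries and lowest in both replicate 3 libraries. Values between libraries are given as CPM, counts scaled to library size with trimmed means of M values. XBP1 (ENSG00000100219, chromosome 22, 28794555 to 28800597) had 253, 231 and 86.2 CPM in control replicates 1, 2 and 3, and 241, 138 and 83.9 in 15-KETE replicates 1, 2 and 3. Both replicate 1 libraries were high and both replicate 3 libraries low, and the groups overlapped; the control and 15-KETE libraries were close in numbers 1 and 3 and apart in number 2.

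HERPUD1 (ENSG00000051108, chromosome 16, 56932142 to 56944864), a membrane protein that organises the ERAD ubiquitin ligase, had 154, 128 and 48.2 CPM in control and 154, 89.8 and 48.3 in 15-KETE replicates 1, 2 and 3. DNAJB9 (ENSG00000128590, chromosome 7, 108569867 to 108574850), the ER co-chaperone ERdj4, had 47.7, 28.5 and 15.6 CPM in control and 45.3, 18.4 and 16.9 in 15-KETE replicates. In both genes the order of the numbers was that of XBP1 in each group. Replicate 1 was above replicate 3 by 2.94-fold in control and 2.88-fold in 15-KETE libraries for XBP1, by 3.21-fold and 3.19-fold for HERPUD1, and by 3.05-fold and 2.67-fold for DNAJB9. At least a 2-fold excess of replicate 1 in both groups was seen for 3 of the 10 members and for 1.01% of all tested genes, 156 of 15451. The replicate number was one of the things the members were chosen on, so nothing is read from that count.

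SEL1L and EDEM1, the other ERAD-linked genes, did not share this pattern. SEL1L (ENSG00000071537, chromosome 14, 81471547 to 81533853), the adaptor of the ubiquitin ligase HRD1, had 155, 72.9 and 161 CPM in control and 167, 98.3 and 159.8 in 15-KETE replicates 1, 2 and 3. Its replicate 2 libraries were the low ones in both groups. EDEM1 (ENSG00000134109, chromosome 3, 5187646 to 5219958), a lectin-like factor that hands misfolded glycoproteins to ERAD, had 131, 92.4 and 111 CPM in control and 135, 112 and 102 in 15-KETE replicates. Its whole range was 1.47-fold, where the median range over the 6 libraries of all genes above 10 CPM was 1.85-fold.

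**Figure D2:**
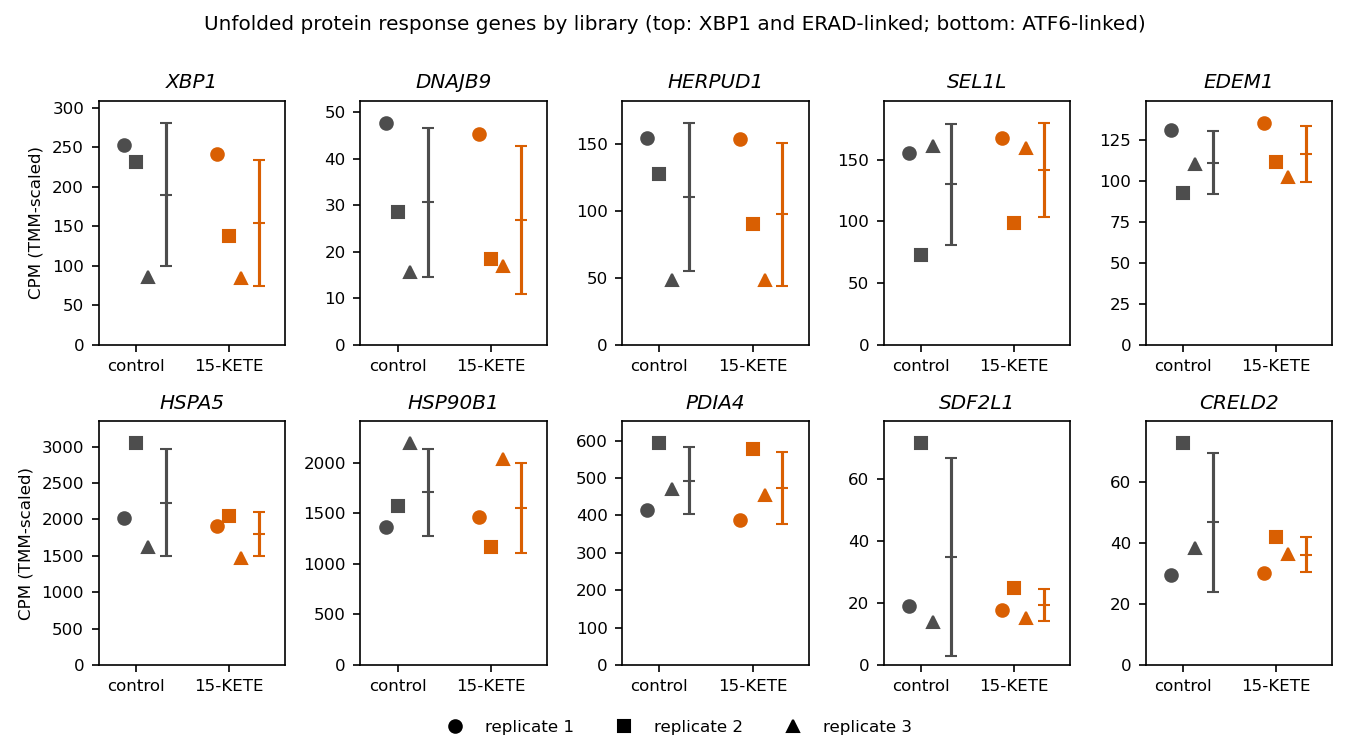
CPM of the 10 genes (vertical axes, linear from 0) in each library, with control in grey and 15-KETE in orange, and replicates 1, 2 and 3 as circles, squares and triangles. Bars beside the points give the mean ± SD of 3 libraries. XBP1, DNAJB9 and HERPUD1 are high in both replicate 1 libraries, and SDF2L1 and CRELD2 are high in control replicate 2.

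Among the ATF6-linked genes, HSPA5, HSP90B1 and PDIA4 varied less than XBP1, HERPUD1 and DNAJB9, and by other replicate numbers. Their ranges over the 6 libraries were 2.08-fold, 1.88-fold and 1.53-fold, where the median of all genes above 10 CPM was 1.85-fold. HSPA5 (ENSG00000044574, chromosome 9, 125234853 to 125241382) had 2025, 3045 and 1626 CPM in control and 1903, 2048 and 1467 in 15-KETE replicates 1, 2 and 3. Control replicate 2 was the highest library, 1.49-fold above the next. HSP90B1 (ENSG00000166598, chromosome 12, 103930107 to 103953931) had 1368, 1568 and 2192 CPM in control and 1464, 1163 and 2033 in 15-KETE replicates. Both replicate 3 libraries were its highest, the reverse of XBP1. PDIA4 (ENSG00000155660, chromosome 7, 149003062 to 149028662) had 415, 592 and 471 CPM in control and 388, 577 and 455 in 15-KETE replicates, and both replicate 2 libraries were the high ones.

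SDF2L1 and CRELD2 stood out in control replicate 2. SDF2L1 (ENSG00000128228, chromosome 22, 21642302 to 21644299) had 18.9, 71.3 and 14.0 CPM in control and 17.6, 24.9 and 15.0 in 15-KETE replicates 1, 2 and 3. Control replicate 2 was 2.87-fold above the next library. CRELD2 (ENSG00000184164, chromosome 22, 49918167 to 49927540), an ER protein released under ER stress, had 29.4, 72.7 and 38.5 CPM in control and 30.2, 41.9 and 36.5 in 15-KETE replicates, with control replicate 2 at 1.74-fold above the next. In both genes the other 5 libraries lay together, at 14.0 to 24.9 CPM for SDF2L1 and 29.4 to 41.9 for CRELD2, and 15-KETE replicate 2 was the highest of these 5. SDF2L1 has the shortest exonic size of the 10 genes, and control replicate 2 is the library with the most counts in short genes. With a smooth trend on exonic length taken from every library, the SDF2L1 difference within replicate 2 went from -1.52 to -1.33 and that of CRELD2, at 5166 bases, from -0.80 to -0.83, as log2 of 15-KETE over control. CRELD2 overlaps ALG12 on the opposite strand, which had 240 to 461 counts per library, up to 83.7% of the CRELD2 count, and no source used here says whether reads were counted by strand.

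The contrast of the 2 sets by replicate number was part of how the genes were chosen and is given as values only. The mean of the log2 CPM of the XBP1 and ERAD-linked genes minus that of the ATF6-linked genes, each gene centred on its mean so that the 6 values sum to 0, was 0.77 in control and 0.80 in 15-KETE replicate 1. It was -0.68 and -0.25 in replicate 2, and -0.34 and -0.29 in replicate 3. On the XBP1 side 3 of the 5 genes carried the difference between numbers 1 and 3. The log2 of replicate 1 over replicate 3 was -0.06 in control and 0.07 in 15-KETE for SEL1L, and 0.24 and 0.40 for EDEM1. The ATF6-linked genes went both ways, in control from -0.68 for HSP90B1 to 0.44 for SDF2L1. In control replicate 2 they stood off their means unequally, by 1.68 for SDF2L1, 0.88 for CRELD2, 0.63 for HSPA5, 0.31 for PDIA4 and -0.02 for HSP90B1.

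Likeness was measured by the root mean square difference of centred log2 CPM, among 9781 genes with a mean of at least 10 CPM. The genes sought were those whose profile over the 6 libraries was most like the mean of each set. For the XBP1 and ERAD-linked set these were the serine synthesis enzyme PSAT1 (0.035 on the log2 scale), the histone deacetylase HDAC5 (0.049), the mitochondrial folate enzyme MTHFD2 (0.060), the GTPase RRAGD (0.077) and ZNF367 (0.080), where the median gene stood at 0.518. PSAT1 had 186, 122 and 89.2 CPM in control and 188, 102 and 92.0 in 15-KETE replicates 1, 2 and 3. For the ATF6-linked set they were the chromatin remodeller CHD4 (0.026), ACTR10 (0.032), RBM8A (0.037), SLC25A4 (0.040) and the kinase MAPK12 (0.040), against a median of 0.382. All 5 of the latter were highest in control replicate 2, as CHD4 with 75.3 CPM there and 39.4 to 47.1 in the other libraries. The mean of the ATF6-linked set was itself highest there, so this follows from how the genes were picked. Likeness was to the mean of each set, a profile that HSP90B1, SEL1L and EDEM1 did not share. PDIA4 departed from it in replicate 2, with 592 CPM in control and 577 in 15-KETE. The centred mean of its set was 0.70 and 0.02 there.

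The values of the 10 genes by treatment were known when they were chosen, so the following counts are given beside their background and nothing is read from them. By edgeR's quasi-likelihood test over all 15451 genes, 0 of the 10 members had an adjusted p below 0.05, where 0% of all genes did. At an unadjusted p below 0.05 there were 0 members and 25 genes, 0.162% of all. limma-voom, limma-trend on log2(FPKM + 1) and DESeq2 called 0 members too, each with 0 members at an unadjusted p below 0.05. Some other settings, given at the end with their background, had 1 member below that unadjusted threshold. The groups overlapped for all 10 members, and were apart for 2.3% of all genes, 1.22% with 15-KETE higher and 1.07% with it lower. The unblocked 95% interval lay within a 2-fold change either way for 4 of 10 members, SEL1L, EDEM1, HSP90B1 and PDIA4, and for 50.7% of all genes. The fitted log2 fold change was below 0 for 8 of 10 members, with a median of -0.18 for the XBP1 and ERAD-linked genes and -0.31 for the ATF6-linked genes, against -0.00 for all genes tested, of which 7764 lay below 0. The median of the XBP1 and ERAD-linked genes changed sign with the library left out, at 0.21 without control replicate 1, 0.02 without 15-KETE replicate 2 and 0.06 without 15-KETE replicate 3, and was -0.66 without 15-KETE replicate 1 and -0.49 without control replicate 3.

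In the fit without a block, the 95% interval of every member's fold change included 0. XBP1 averaged 154 ± 80.0 CPM over the 15-KETE and 190.1 ± 90.7 CPM over the control libraries (SD, n = 3 per group), a log2 fold change of -0.30 with a 95% interval of -1.37 to 0.77. HSPA5 had -0.31 (-1.05 to 0.43), HERPUD1 -0.18 (-1.31 to 0.95), DNAJB9 -0.19 (-1.29 to 0.91), CRELD2 -0.37 (-1.17 to 0.42), HSP90B1 -0.14 (-0.88 to 0.60) and PDIA4 -0.06 (-0.68 to 0.57). SEL1L, at 0.13 (-0.68 to 0.93), and EDEM1, at 0.07 (-0.50 to 0.63), lay above 0. SDF2L1 averaged 19.2 ± 5.14 CPM over the 15-KETE and 34.7 ± 31.8 CPM over the control libraries (SD, n = 3 per group), a log2 fold change of -0.86 (-2.13 to 0.42), which became 0.23 without control replicate 2. Without that library the median of the ATF6-linked genes also went from -0.31 to 0.10. Leaving out libraries in turn moved DNAJB9 between -0.78 and 0.30, HERPUD1 between -0.66 and 0.17, CRELD2 between -0.60 and 0.10 and HSP90B1 between -0.38 and 0.11. HSPA5, between -0.46 and -0.01, was the member that stayed on 1 side of 0 in these runs.

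Fitting the replicate number as a block narrowed these intervals and called 0 members and 0% of all genes, with 0 members and 727 genes (4.71%) at an unadjusted p below 0.05. The blocked log2 fold changes were -0.28 for XBP1 (95% interval -0.68 to 0.11), -0.27 for HSPA5 (-0.69 to 0.16), -0.28 for CRELD2 (-0.70 to 0.14) and -0.52 for SDF2L1 (-1.11 to 0.07). For 9 of 10 members, all but SDF2L1, the blocked interval lay within a 2-fold change either way, as it did for 78.5% of all genes.

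Within replicate numbers 1 and 3 the 15-KETE library matched its control closely, and the differences came from number 2. The log2 differences of the 10 members ran from -0.10 to 0.11 in number 1 and from -0.15 to 0.12 in number 3, so that all 10 lay within 0.2 of 0, as did 53.0% and 71.9% of all genes. In number 2 they ran from -1.52 for SDF2L1 to 0.43 for SEL1L, with 1 of 10, PDIA4, within 0.2, as were 22.6% of all genes. SDF2L1 was at least 2-fold below control there, as were 5.76% of all genes, and 0 members were at least 1.5-fold above, as were 19.9%. These cutoffs differ, so the counts do not compare the directions. XBP1 (1.67-fold), DNAJB9 (1.55-fold) and CRELD2 (1.74-fold) were also at least 1.5-fold below control there. The share of all genes at least 1.5-fold below was not computed. In all 3 numbers 15-KETE was below control for 3 of 10 members, XBP1, HSPA5 and PDIA4, and for 14.5% of all genes. XBP1 differed by -0.74, DNAJB9 by -0.64, HERPUD1 by -0.51, HSPA5 by -0.57, HSP90B1 by -0.43, CRELD2 by -0.80 and EDEM1 by 0.28 in that number. With the length trend removed, HSP90B1 went from -0.43 to -0.88 and SEL1L from 0.43 to 0.09, the longest exonic sizes of the 10, and PDIA4 from -0.04 to 0.12. The part of control replicate 2's composition in these differences was not tested beyond the length trend.

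**Figure D3:**
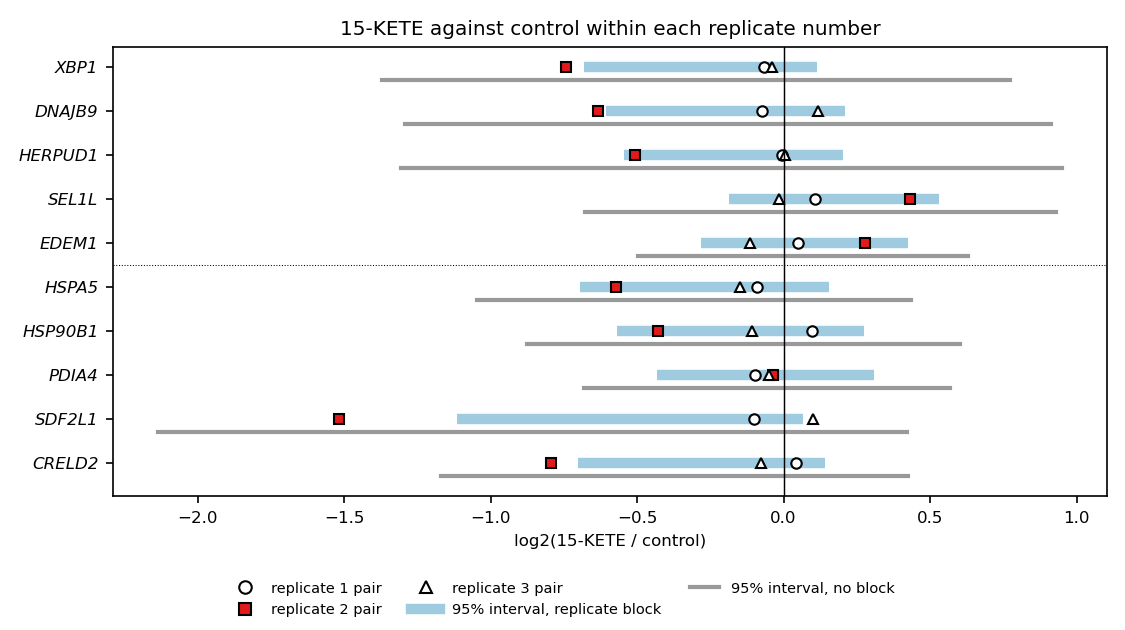
Log2 of 15-KETE over control (horizontal axis) for the 10 genes, with the differences within replicate numbers 1, 2 and 3 as circles, red squares and triangles, and the 95% intervals of the edgeR fits with (blue) and without (grey) the replicate block. All circles and triangles lie between -0.15 and 0.12, and the squares between -1.52 and 0.43.

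The rest of the ER machinery was read from 7 lists of 123 genes, of which 122 were tested, ERN2 having 0 counts in all 6 libraries. Between 15-KETE and control, 0 of the 122 passed the edgeR test in either direction, with or without the replicate block. Of the 122, 49 lay above 0 and 73 below, beside 7687 above and 7764 below among all genes. The median log2 difference of the 122 was -0.05, -0.16 and 0.01 within replicate numbers 1, 2 and 3. Nothing is read from the counts above 0 here or in the lists below. With the block, 5 of 122 had an unadjusted p below 0.05, where 4.71% of all genes did. The sensors were of modest abundance, with 5.06 ± 1.19 FPKM for ATF6, 1.58 ± 0.401 for ERN1 and 1.46 ± 0.446 for EIF2AK3 (SD, n = 6 libraries each), and log2 fold changes of 0.12, 0.15 and 0.07. The other tested sensor-list genes were ATF6B (0.12), the proteases MBTPS1 (0.18) and MBTPS2 (0.11) that cut ATF6, the ligase RTCB (-0.27) that rejoins XBP1 mRNA, CREB3 (-0.33), CREB3L1 (-0.08) and CREB3L2 (0.24), as log2 fold changes.

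ER chaperones and folding enzymes outside the members had 11 of 29 genes above 0. CALR, the lectin chaperone calreticulin, stood at 605 FPKM with a log2 fold change of -0.15, CANX, its membrane-bound relative, at 107 (0.10) and PDIA6 at 97.6 (-0.14), and among genes above 10 CPM the list ran from PRDX4 (-0.54) to UGGT1 (0.27). TXNDC5, named after its values were seen, was the 1 gene of the 122 tested list genes whose groups did not overlap. Over all genes that share was 2.3%, so nothing is read from it. TXNDC5 had 6.14, 4.43 and 4.48 CPM in control and 8.92, 7.25 and 6.18 in 15-KETE replicates 1, 2 and 3 (log2 fold change 0.57 ± 0.301, SE, edgeR adjusted p = 0.9996). Of the ERAD machinery, 8 of 25 lay above 0, with RNF5 (-0.34), the segregase VCP (-0.14) and AUP1 (-0.23) most abundant and a range from SELENOS (-0.46) to EDEM3 (0.30).

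In the translocon and ER-Golgi list 10 of 25 lay above 0, with KDELR1 (-0.30), KDELR2 (-0.12) and SSR3 (-0.18) most abundant and a range from SEC61G (-0.67) to SEC31A (0.30). Of the oligosaccharyltransferase, 2 of 11 lay above 0, with RPN2 at -0.03, DAD1 at -0.43 and DDOST at -0.06, and a range from OST4 (-0.52) to STT3A (0.11). The 5 reported targets of IRE1's mRNA decay ran from BLOC1S1 (-0.54) to HGSNAT (0.33), with COL6A1 at 0.09 and SCARA3 at 0.29. Of the PERK and ATF4 branch, 7 of 17 lay above 0, with ATF4 at -0.28, CEBPB at -0.51, DDIT4 lowest at -0.57 and ASNS highest at 0.33.

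Part of the PERK and ATF4 list, which was chosen with earlier results known, differed between replicate numbers 1 and 3. In an edgeR fit with number and group, added after the values were seen, 10 of the 17 genes of that list were higher in replicate 1 than in replicate 3 and 0 were lower, where 1.16% of all tested genes were higher and 2.95% lower. The other 7 did not pass, among them ATF5 at -0.42, DDIT4 at -0.48, CEBPB at 0.27 and XPOT at 0.24, as log2 of replicate 1 over replicate 3. Leaving out each library in turn gave 7 to 13 of 17, beside 25 to 2628 genes higher in all. The 13 were reached without control replicate 2 and without 15-KETE replicate 2, where 2617 and 2628 genes were higher in all. Of the other 105 ER genes tested, 2 were higher, the COPII coat gene SEC24D and the KDEL receptor KDELR3, and 1 was lower, the mannosidase-like EDEM3. Without control replicate 1, control replicate 3 or 15-KETE replicate 1 none of these 3 passed, and without control replicate 2 or 15-KETE replicate 2 the numbers higher rose to 34 and 35. No gene of the other chaperone list passed. Each number has a single library per group, and the list and the fit both followed sight of these data. Nothing is therefore read from these counts or from the adjusted p-values below.

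The higher genes were the factor ATF4 itself, the CHOP gene DDIT3, PPP1R15A, which brings the eIF2-alpha phosphatase, and TRIB3, ATF3, CHAC1, SESN2, ASNS, CEBPG and STC2, all named after their values were seen. DDIT3 had 60.5, 30.5 and 12.9 CPM in control and 60.6, 17.3 and 13.0 in 15-KETE replicates 1, 2 and 3, a log2 difference of replicate 1 over replicate 3 of 2.23 ± 0.251 (SE, edgeR adjusted p = 0.0014). CHAC1, which degrades glutathione, had 13.9, 2.05 and 1.25 CPM in control and 12.5, 1.42 and 1.41 in 15-KETE (3.30 ± 0.309, SE, edgeR adjusted p = 0.00051). ASNS, asparagine synthetase, had 21.8, 2.32 and 3.29 CPM in control and 28.4, 2.26 and 3.96 in 15-KETE (2.78 ± 0.253, SE, edgeR adjusted p = 0.00051). In each of the 3 genes both replicate 1 libraries were above the other 4. ATF4 had 622, 503 and 246 CPM in control and 558, 316 and 257 in 15-KETE, in the same order of numbers as XBP1. What the replicate numbers stand for is not stated, and each such difference is between libraries of the same group.

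**Figure D4:**
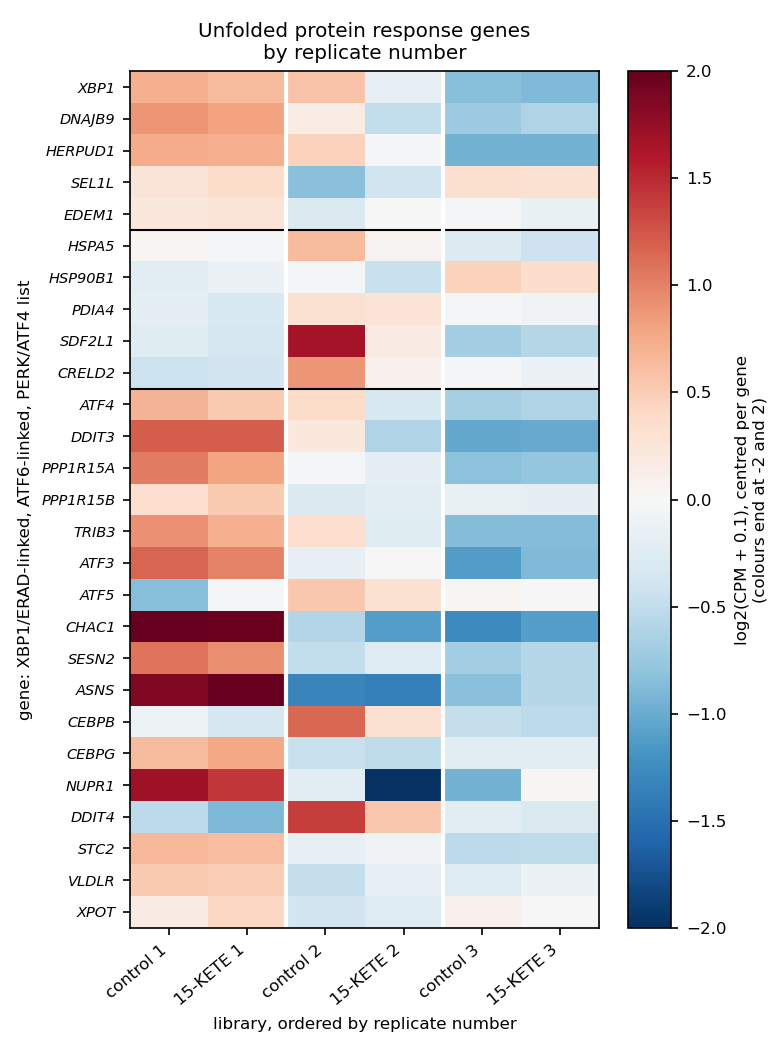
Centred log2(CPM + 0.1) per gene (colour, red above and blue below the gene's mean) in the 6 libraries ordered by replicate number, for the 10 members in their 2 sets and for the 17 genes of the PERK and ATF4 list. XBP1, DNAJB9 and HERPUD1 are red in both replicate 1 libraries together with DDIT3, CHAC1 and ASNS, while SDF2L1 and CRELD2 are red in control replicate 2.

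**Figure D5:**
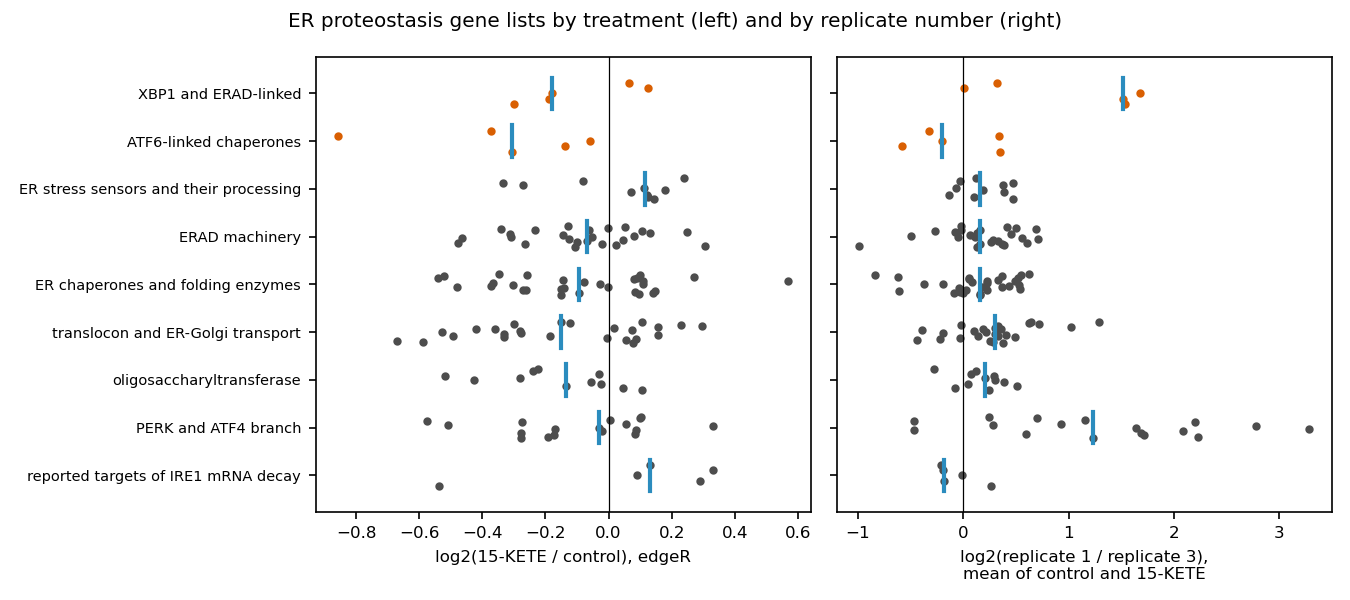
Log2 differences of each tested gene (points; members in orange) and their median (blue line) for the 2 sets of members and the 7 wider lists, for 15-KETE over control from the edgeR fit (left) and for replicate 1 over replicate 3 as the mean of both groups (right). Medians on the left lie between -0.31 and 0.13, and on the right the PERK and ATF4 list and the XBP1 and ERAD-linked genes reach above 1.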

How the data were processed

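RNA-seq of 6 libraries was analysed from 1 table of 61806 genes. Libraries were prepared from polyA RNA with a SMARTER mRNA-Seq kit, per the labels' protocols. Tools listed in the submitters' processing notes, without their roles, include HISAT2 2.2.1, HTSeq 0.6.1 and cutadapt 1.9.1. The counts, per the file headers, are raw counts per gene and library. The FPKM, deposited by the authors in the same table, lay within 0.01 of values recomputed from count, exonic size and library total for 100% of entries. No source used here gives the genome build, and gene coordinates are as the table gives them. All 10 members were on the same chromosome as in GENCODE release 29 (GRCh38), and 7 shared a start or an end with it. Promoter sequences and their coordinates are RefSeq's, on GRCh38.p14.

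Counts were fitted with edgeR 4.0.16 in R 4.3.3 over both groups (filterByExpr by group, TMM, robust quasi-likelihood test, Benjamini-Hochberg over 15451 genes, threshold 0.05), on code tested on simulated data. Standard errors and 95% intervals come from the fold change and the F statistic. The length trend was a smooth of log2 CPM on log10 exonic size (mgcv 1.9.3) fitted outside the members and lists. The members and lists were chosen with earlier results of these data known. Genes named were the members, all tested sensors, in each other list the 3 of highest FPKM and the highest and lowest fold change above 10 CPM, and the 5 genes of most similar profile per set.

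Replicate numbers come from the titles. Deviations from the group means correlated at 0.541, 0.619 and 0.695 between libraries numbered 1, 2 and 3. They correlated at -0.543 to -0.086 between different numbers, in part because the deviations within a group cancel out. Same-numbered libraries were treated as pairs in the blocked fit and in the differences within numbers, while the main fit had no block. No 2 libraries had identical counts. Alternatives were other size factors, other filters, DESeq2 1.42.0, limma 3.58.1 (voom, and trend on log2(FPKM + 1)), the replicate block, the length trend and leaving out libraries.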

Additional observations from a re-analysis of the deposited data

How the results depend on the processing

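Under every setting run, 0 of the 10 members and 0 of the list genes tested passed between 15-KETE and control. The list genes tested were 122, except 114 with a mean of at least 10 CPM required and 121 with the block without both replicate 1 libraries. Over all genes 0 passed, except with the replicate block without both replicate 1 libraries (1 gene) or without both replicate 3 libraries (12 genes). Leaving out 1 library at a time, 0 genes passed, and the median log2 fold change ran from -0.66 to 0.21 for the XBP1 and ERAD-linked genes and from -0.46 to 0.10 for the ATF6-linked genes. The replicate block itself changed no call on a member or list gene. At an unadjusted p below 0.05 by edgeR there was 1 member with no filter on low counts, beside 450 of 32005 genes. Without control replicate 3 there was 1, beside 893 of 15896. With the block there was 1 without both replicate 1 libraries (611 of 15950 genes) and 1 without both replicate 3 libraries (1910 of 15701). Nothing is read from these counts. For replicate 1 against replicate 3, an exonic length trend gave 472 higher genes (179 without it) and 5 higher ER genes outside the PERK and ATF4 list (2 without it). Without the group term there were 39 genes higher and 96 lower (456 with it), and 1 and 0 of these other ER genes. Leaving out 1 library gave 25 to 2628 genes higher and 64 to 2755 lower, 0 to 35 and 0 to 8 of the other ER genes, and 7 to 13 of the PERK and ATF4 list. The counts were highest without either replicate 2 library, where no spread between replicate 2 libraries enters the fit. With 3 libraries a group, the unblocked 95% interval lay within a 2-fold change for 50.7% of all genes, which limits what can be said of SDF2L1 in particular. Reads of pseudogene copies were few, at most 51 counts for HSP90B2P and 8 for XBP1P1 in a library.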
